A study of Danio rerio with 4 samples.

Results

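Proneural basic helix-loop-helix (bHLH) genes encode transcription factors that turn dividing neural progenitors into neurons. Here 9 neural bHLH genes, grouped broadly under this name, were followed in the zebrafish retina. These were atoh7, ascl1a, ascl1b, neurog1, neurod, neurod2, neurod4, olig2 and bhlhe22, of which olig2 and bhlhe22 are better known from other roles. All 9 were picked by symbol in the authors' deposited table. Every transcript of their gene identifiers was then read from the tables of the single libraries. This gave 9 of 26355 genes, with 11 of 46226 transcripts. Retinas dissected at 48 hours post fertilization were sequenced after poly-A selection from 1 microgram of total RNA per condition. The knockdown group received the id2a morpholino (2 libraries), and the control group received the Id2aMM morpholino (2 libraries). Morpholinos are synthetic antisense molecules that pair with an RNA and keep it from being translated or spliced. All 4 libraries therefore come from fish that carried a morpholino. A group without a morpholino is not among them, and the labels give neither a strain nor the number of embryos pooled into a library.

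Proneural factors bind DNA at E-box sequences as dimers with broadly expressed E proteins. Id proteins such as Id2a are helix-loop-helix proteins without the basic, DNA-binding part. They pair with E proteins and so keep them from the proneural factors. In the vertebrate retina the bHLH genes act in a sequence. Genes such as ascl1a and atoh7 are used in cycling progenitors and around the last division, while genes of the neurod family are used in cells that are leaving the cycle and in young neurons.

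The libraries held 42980929 and 54710062 first-mate counts in id2a knockdown replicates 1 and 2, and 50230438 and 53652256 in Id2aMM control replicates 1 and 2. The retinal transcription factor genes fixed as tissue markers were all tested, 15 of 15, and all averaged at least 2 CPM (counts scaled to library size). Genes were compared with edgeR's quasi-likelihood test with Benjamini-Hochberg adjustment over 37012 transcripts, at a threshold of 0.05, and the most abundant transcript stood for its gene. Calls as a whole depended on both control libraries, while transcripts still passed when a knockdown library was left out. Without control replicate 1 no transcript passed (8160 at an unadjusted p under 0.05), and without control replicate 2 438 passed, against 2603 with all 4 libraries. Every call named below is therefore lost without control replicate 1. The labels do not say whether replicates came from separate clutches, so the p-values measure only the spread between these libraries.

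Of the 9 genes, neurod and neurod2 fell in the id2a knockdown, none rose and 7 did not pass. Among all 20875 genes tested, 5.23% were called lower and 2.04% higher. At an unadjusted p under 0.05, 5 of the 9 genes were lower and 0 higher, against 16.7% and 11.6% of all genes. The authors' deposited table calls 2 of the 9 genes lower (neurog1 and neurod2) and 0 higher, where 5.69% of its transcripts are called lower. The median log2 fold change of the 9 genes was -0.66, against -0.04 over all genes tested. The CPM values of the groups did not overlap, with the knockdown lower, in 6 of the 9 genes, against 32.3% of all genes, and did not overlap with the knockdown higher in 1 of them, against 29.8%. All 9 genes passed the filter on low counts, neurod2 through the control libraries alone. The 9 genes were chosen with earlier results of these data known, so these counts describe them and were given no test of their own. In whole-tissue RNA, fewer cells of a type and less RNA per cell cannot be told apart.

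**Figure D1:**
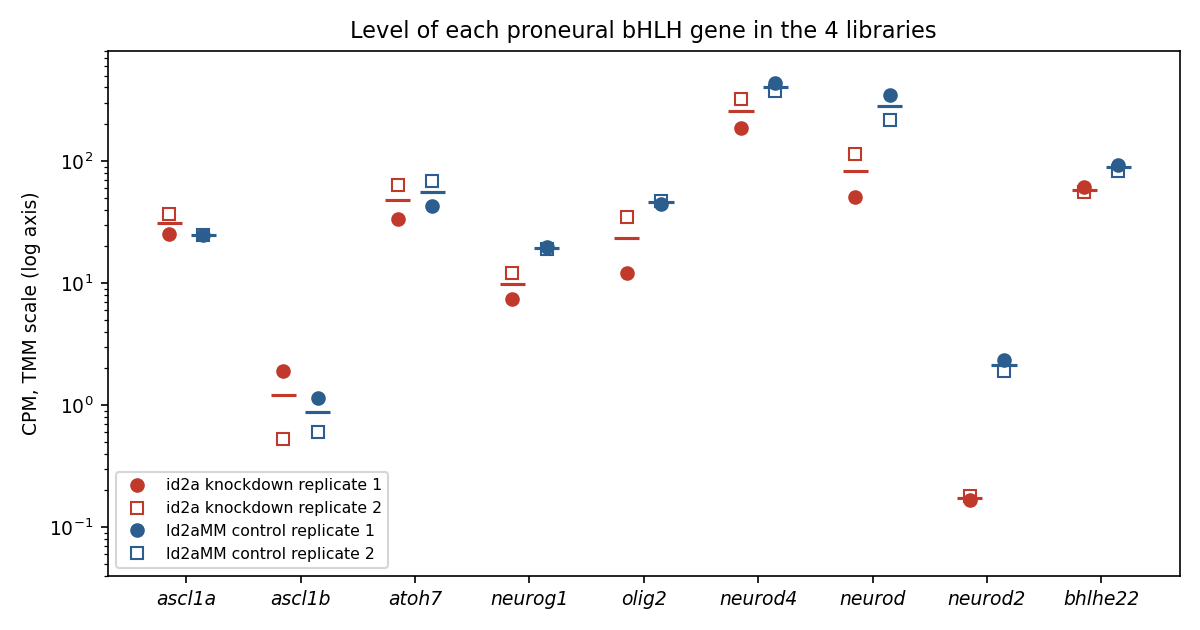
Level of each gene in CPM (TMM scale, log axis) in the 2 id2a knockdown libraries (red) and the 2 Id2aMM control libraries (blue); horizontal bars are group means. The knockdown points of neurod2 (0.167 and 0.181 CPM) and neurod (50.3 and 114 CPM) lie below both of their control points, while those of atoh7 and ascl1b overlap with the control points.

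Levels differed widely between the genes. Per length, the level was taken as RPKM (reads scaled for transcript length and library size), which is the authors' deposited score divided by 1000. In control retinas the most abundant of the 9 was neurod4, at 202 and 182 RPKM in replicates 1 and 2. It was followed by neurod (131 and 86.9 RPKM), atoh7 (39.7 and 65.5 RPKM) and bhlhe22 (42.2 and 39.5 RPKM). The ranges of atoh7 and bhlhe22 overlapped, so their order is not settled. Then came olig2 (24.2 and 27.1 RPKM), neurog1 (12.6 and 12.8 RPKM) and ascl1a (11.6 and 12.1 RPKM), which lay close together in the case of the last 2. Levels were lowest for neurod2 (1.45 and 1.20 RPKM) and ascl1b (0.798 and 0.459 RPKM). In knockdown retinas neurod4 was still first, at 86.7 and 154 RPKM. There neurod, at 18.8 and 44.0 RPKM, lay below atoh7, at 30.0 and 58.9 RPKM, in both libraries, whereas it lay above atoh7 in both control libraries. The gene neurod made up 10.01% and 13.4% of the summed RPKM of the 9 genes in the knockdown libraries, against 28.2% and 20.3% in the control libraries. The share of neurod4 was 46.2% and 47.0% in the knockdown and 43.4% and 42.6% in the control libraries.

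Among the genes of cycling progenitors, ascl1a encodes an achaete-scute factor that, in zebrafish, is also switched on when Muller glia re-enter the cycle after injury. Its transcript (chromosome 4 in the authors' table, gene ENSDARG00000038386) had 25.4 and 36.6 CPM in the knockdown libraries, against 24.7 and 24.7 CPM in the control libraries. The knockdown libraries were both above the controls, replicate 1 by little. The log2 fold change was 0.33 (SE 0.25, edgeR adjusted p = 0.440). The SE beside a fold change comes from the test, as the absolute log2 fold change over the square root of its F statistic, and is not a spread between libraries.

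Its paralog ascl1b (chromosome 7, ENSDARG00000094379) was near the floor of detection. It had 79 and 29 counts in the knockdown libraries, against 57 and 33 counts in the control libraries, and the groups overlapped. Its log2 fold change was 0.45 (SE 0.67, edgeR adjusted p = 0.708). When each read was split over all transcripts it hit, 56.1% of these counts remained with ascl1b, so other transcripts share its reads and its level is uncertain.

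The gene atoh7 (chromosome 13, ENSDARG00000069552) encodes the atonal factor that retinal ganglion cells need in order to form, in zebrafish and mouse. It had 33.2 and 63.5 CPM in the knockdown libraries, against 43.1 and 68.8 CPM in the control libraries. Both groups spread widely and overlapped. The log2 fold change was -0.21 (SE 0.35, edgeR adjusted p = 0.739), and its sign turned without knockdown replicate 1 (0.20) and without control replicate 2 (0.17). No difference in atoh7 was detectable with these 4 libraries.

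Neurogenin 1, the product of neurog1 (chromosome 14, ENSDARG00000056130), is a proneural factor known from sensory ganglia and the brain. It had 7.37 and 12.1 CPM in the knockdown libraries, against 19.6 and 18.8 CPM in the control libraries, with no overlap. Its log2 fold change of -0.98 (SE 0.29) did not pass (edgeR adjusted p = 0.0786). It passed with DESeq2 (adjusted p = 0.0278), without the filter on low counts (edgeR adjusted p = 0.0451) and without knockdown replicate 2 (edgeR adjusted p = 0.0165). The authors' deposited table gives it a log2 fold change of -0.95 and a DESeq adjusted p of 0.0306.

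For olig2 (chromosome 9, ENSDARG00000040946), best known from motor neuron and oligodendrocyte precursors, the knockdown libraries differed from each other more than for any other of the 9 genes that averaged at least 2 CPM. It had 11.97 and 34.9 CPM in the knockdown libraries, against 44.5 and 47.0 CPM in the control libraries. Knockdown replicate 2 was thus 2.92 times as high as replicate 1, while the control libraries were close together. The log2 fold change was -0.96 (SE 0.43, edgeR adjusted p = 0.196). It was -0.37 (edgeR adjusted p = 0.679) without knockdown replicate 1 and -1.93 (edgeR adjusted p = 0.00136) without knockdown replicate 2, so 1 library decided this value.

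Among the genes of cells leaving the cycle, neurod4, which in mouse takes part in making amacrine and bipolar cells, was at 187 and 324 CPM in the knockdown libraries, against 435 and 373 CPM in the control libraries. The groups did not overlap, but knockdown replicate 2 lay close to the controls. The log2 fold change was -0.66 (SE 0.29, edgeR adjusted p = 0.181), and of the 13 alternatives it passed only without knockdown replicate 2, at -1.11 (edgeR adjusted p = 0.0385). The gene (chromosome 23, ENSDARG00000003469) has 2 transcripts in the tables, which hold the same counts in every library because each read hit both. They are 1 measurement and not a pair.

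The gene neurod (chromosome 9, ENSDARG00000019566) encodes the NeuroD1 factor, which in the zebrafish retina is known for promoting cell cycle exit of photoreceptor progenitors. Its transcript had 2108 and 6293 counts in the knockdown libraries, against 17305 and 12050 counts in the control libraries. On the CPM scale these were 50.3 and 114 CPM in the knockdown libraries, against 350 and 218 CPM in the control libraries. Every knockdown library was below every control library, and the knockdown libraries differed 2.27-fold from each other. Means were 82.2 ± 45.1 CPM in the knockdown and 284 ± 93.3 CPM in the control (SD, n = 2 each). The log2 fold change was -1.79 (SE 0.40, edgeR adjusted p = 0.0415), that is 3.45-fold lower in the knockdown.

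That call of neurod lay close to the threshold. It was lost without control replicate 1 (log2 fold change -1.38, edgeR adjusted p = 0.176), without control replicate 2 (-2.09, edgeR adjusted p = 0.0774) and with reads summed per gene, which left the fold change at -1.78 (edgeR adjusted p = 0.0587). Without knockdown replicate 2 the log2 fold change was -2.49, and without knockdown replicate 1 it was -1.30. The authors' deposited table lists neurod at a log2 fold change of -1.77 with a DESeq adjusted p of 0.0604. Reads shared with other transcripts hardly moved it: split reads left 93.1% and 96.9% of its counts in the knockdown libraries and 99.1% and 99.3% in the control libraries, with a log2 fold change of -1.78.

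The gene neurod2 (chromosome 12, ENSDARG00000016854), whose product is known from maturing neurons of the brain and, in mouse, from amacrine and ganglion cells, was rare but had the largest fold change of the 9. It had 7 and 10 counts in the knockdown libraries, against 116 and 106 counts in the control libraries. In CPM, its levels were 0.167 and 0.181 CPM in the knockdown libraries, against 2.35 and 1.92 CPM in the control libraries. Both groups were tight and far apart. The gene passed the filter on low counts through the control libraries alone, so it was tested only through the group where it is high. The log2 fold change was -3.59 (SE 0.51, edgeR adjusted p = 0.0207). From the summed counts, 17 in the knockdown and 222 in the control, the level was 12.1-fold lower in the knockdown (exact 95% conditional binomial interval 7.39 to 21.2, for counting error only). No read of neurod2 was shared with another transcript. Having a single transcript, it could not change in the alternative that takes the transcript with the smallest p. The call was lost without control replicate 1 (-3.42, edgeR adjusted p = 0.159) and without control replicate 2 (-3.73, edgeR adjusted p = 0.0516), and held in the other 11 alternatives. The authors' deposited table gives it a log2 fold change of -3.65 with a DESeq adjusted p of 8.05e-07.

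The gene bhlhe22 (chromosome 24, ENSDARG00000058039), whose mouse counterpart is needed by some amacrine and cone bipolar cells, varied little within each group. It had 60.7 and 55.7 CPM in the knockdown libraries, against 93.5 and 83.4 CPM in the control libraries. The groups did not overlap. Its log2 fold change of -0.60 (SE 0.21) did not pass (edgeR adjusted p = 0.112) and kept its sign in all 13 alternatives, between -0.68 and -0.50. It too has 2 transcripts that share nearly all of their reads.

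**Figure D2:**
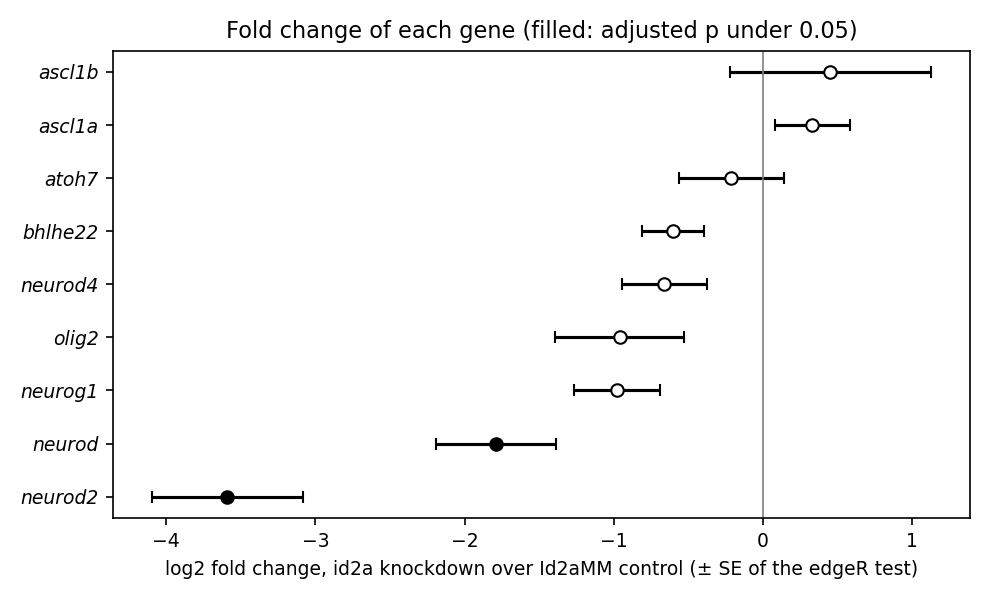
Log2 fold change of each gene, id2a knockdown over Id2aMM control, with bars of ± SE from the edgeR test and filled points for an adjusted p under 0.05. The genes run from ascl1b (0.45) and ascl1a (0.33) through atoh7 (-0.21) to neurod (-1.79) and neurod2 (-3.59), and only the last pair is filled.

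The genes neurod and neurod2, of cells leaving the cycle and young neurons, were set against the progenitor genes ascl1a and atoh7. This was done within each library, as the difference in log2(CPM + 0.5) between 2 genes. This pseudocount understates the change of a rare gene such as neurod2. The difference of neurod over ascl1a was 0.97 and 1.63 in the knockdown libraries, against 3.80 and 3.12 in the control libraries. That of neurod over atoh7 was 0.59 and 0.84 in the knockdown libraries, against 3.01 and 1.66 in the control libraries. For both pairs every knockdown library lay below every control library. That was also true of neurod alone, which both pairs share. The share of all gene pairs that separate in this way was not computed.

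In the pairs of neurod2, too, every knockdown library lay below every control library, as for neurod2 alone. This gene was far below the progenitor genes in all libraries. Its difference to ascl1a was -5.28 and -5.77 in the knockdown libraries, against -3.15 and -3.38 in the control libraries. Its difference to atoh7 was -5.66 and -6.55 in the knockdown libraries, against -3.94 and -4.84 in the control libraries.

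Taking the mean of neurod and neurod2 against the mean of ascl1a and atoh7, the difference was -2.34 and -2.46 in the knockdown libraries, against -0.07 and -0.86 in the control libraries. The group means differed by -1.94, which is 3.83-fold on this scale. With 1 library left out this value ranged from -2.33 to -1.55. A part of this value comes from neurod2, which passed the filter on low counts through the control libraries alone. The value carries no p, because the genes were chosen with results known and 2 libraries against 2 allow no exact permutation p under the threshold.

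Other pairs moved less. The difference of neurod4 over atoh7 was 2.48 and 2.34 in the knockdown libraries, against 3.32 and 2.43 in the control libraries, where knockdown replicate 1 and control replicate 2 overlap. That of ascl1a over atoh7 was -0.38 and -0.79 in the knockdown libraries, against -0.79 and -1.46 in the control libraries. The 2 libraries at -0.79 lay side by side. Within the neurod family, neurod over neurod4 stood at -1.89 and -1.50 in the knockdown libraries, against -0.31 and -0.77 in the control libraries, so neurod was lower relative to neurod4 in every knockdown library.

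**Figure D3:**
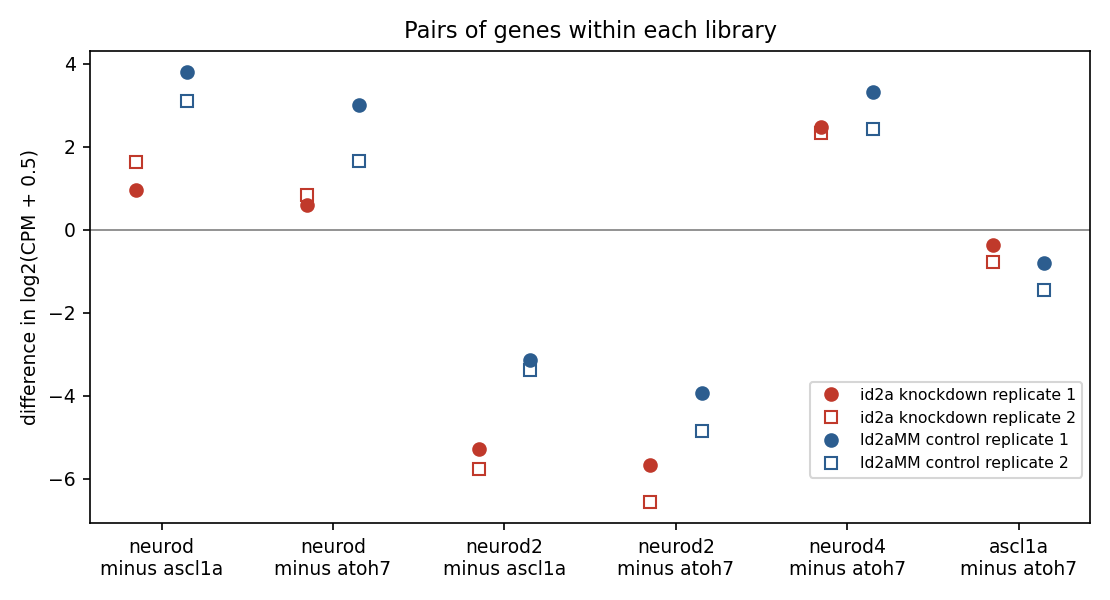
Difference in log2(CPM + 0.5) between 2 genes within each library, for the 2 id2a knockdown libraries (red) and the 2 Id2aMM control libraries (blue). In the 4 pairs of neurod or neurod2 with ascl1a or atoh7 both knockdown points lie below both control points, whereas for neurod4 minus atoh7 the groups overlap. These 4 pairs share their genes and are not separate observations. Of those genes, neurod2 passed the filter on low counts through the control libraries alone.

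The knockdown libraries were not alike for several of these genes. In 7 of the 9, all but ascl1b and bhlhe22, knockdown replicate 1 was lower than knockdown replicate 2. For neurod2 that gap was small, at 0.167 and 0.181 CPM (7 and 10 counts). The share of all genes lower in knockdown replicate 1 was not computed. Over the genes averaging at least 2 CPM, the median of knockdown replicate 1 minus 2 was 0.006 in log2(CPM + 0.5). For 5 of the 9 (atoh7, ascl1b, neurod, neurod4 and olig2) the gap between the knockdown libraries exceeded that of 90% of the 14477 genes averaging at least 2 CPM, which was 0.70 on the log2(CPM + 0.5) scale. The genes ascl1b and neurod2 lie outside that set. Means of ascl1b were 1.21 CPM in the knockdown and 0.875 CPM in the control, near the floor. Those of neurod2 were 0.174 CPM in the knockdown and 2.13 CPM in the control. Between the control libraries 0 of the 9 genes passed the same mark (0.71). The gaps of neurod (0.68) and atoh7 (-0.67, control replicate 1 minus 2) lay just under it in size. Against the control mean, neurod was at -2.45 in the first knockdown library and at -1.27 in the second. The same values were -1.89 and -0.38 for olig2, -1.10 and -0.31 for neurod4, and -1.98 and -1.94 for neurod2. For the rare neurod2 the pseudocount understates the change, which was -3.59 in the edgeR fit.

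Markers of other tissues also moved between the libraries. All 8 epidermis and cornea markers fell, with a summed level of 365 and 107 CPM in the knockdown libraries, against 1335 and 1389 CPM in the control libraries. Of 9 lens markers 7 rose, with a summed level of 2245 and 1287 CPM in the knockdown libraries, against 550.2 and 564 CPM in the control libraries. Of 6 tested markers of brain regions outside the retina gbx2 fell and 5 did not pass, and 3 matched genes were too low to test (hoxb1a and both copies of phox2a). Their summed level was 21.0 and 18.4 CPM in the knockdown libraries, against 62.5 and 30.6 CPM in the control libraries. Of the lens, epidermis and brain markers that matched, 0 were at 0 counts in all libraries. The part of these tissues in the values of the bHLH genes was not tested. None of 6 pigment epithelium markers was called (0 by edgeR, also 0 before adjustment, and 0 by DESeq2).

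The other genes of the pathway were read from lists written with the plan, when earlier results of these data were known. Counts per list stand beside the shares over all genes tested, 5.23% called lower and 2.04% called higher. These counts describe the lists and were given no test. Below, nhlh2 is counted again among the neurogenic genes, and elavl3 both there and among the genes of postmitotic neurons. Of 20 further neural bHLH symbols 18 matched and 11 genes were tested, of which nhlh2 and bhlhe23 fell and 9 did not pass (median log2 fold change 0.12). For the 5 of them that averaged at least 2 CPM, the median against the control mean was -1.55 in the first knockdown library and -0.72 in the second. The gene nhlh2 encodes a factor of young neurons. It had 8.16 and 9.62 CPM in the knockdown libraries, against 27.4 and 22.4 CPM in the control libraries with a log2 fold change of -1.48 (edgeR adjusted p = 0.0257, SE 0.25). The gene bhlhe23, a relative of bhlhe22 known in mouse from rod bipolar cells, had 0.692 and 5.65 CPM in the knockdown libraries, against 45.5 and 36.8 CPM in the control libraries with a log2 fold change of -3.68 (edgeR adjusted p = 0.0340, SE 0.76). The next by p did not pass, namely OLIG3 (2.03), neurod6a (-1.63), ptf1a (-1.23) and atoh1a (1.28, log2 fold changes). Near the floor, OLIG3 had 2.50 and 0.816 CPM in the knockdown libraries, against 0.425 and 0.380 CPM in the control libraries. For neurod6a these were 0.859 and 0.779 CPM against 3.86 and 1.23 CPM. For atoh1a they were 1.46 and 0.272 CPM against 0.263 and 0.434 CPM, and the groups overlapped. For ptf1a, which specifies amacrine and horizontal cells, the knockdown libraries were at 1.57 and 9.19 CPM, against 11.2 and 14.2 CPM in the control libraries.

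The tested E protein genes, tcf3 and tcf12, had positive log2 fold changes, while the Id genes went in both directions. Of 7 tested E protein and Id genes, the E protein gene tcf3 rose, id4 fell and 5 did not pass. Among those that did not pass, log2 fold changes were 0.66 for id1, 0.42 for id3, 0.24 for tcf12 and -0.25 for id2b. The target gene id2a measured 84.8 and 70.6 CPM in id2a knockdown, against 82.3 and 59.5 CPM in the control libraries (0.13, edgeR adjusted p = 0.768), so its most abundant transcript was not called lower. Whether translation or splicing is blocked is not given in the labels, so this level does not check them. The calls of tcf3 and id4 were lost without knockdown replicate 1, without control replicate 1 and without control replicate 2, and 1 of them was lost without knockdown replicate 2.

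Among 23 Delta ligand and neurogenic genes placed after the proneural factors in current accounts, 4 fell, 0 rose and 19 did not pass (median log2 fold change 0.05). Over all genes tested, 5.23% were called lower and 2.04% higher. The 4 that fell were nhlh2, ebf3, scrt2 and elavl3, all linked to young neurons. Levels of elavl3, an RNA-binding protein of new neurons, were 129 and 159 CPM in the knockdown libraries, against 324 and 259 CPM in the control libraries with a log2 fold change of -1.02 (edgeR adjusted p = 0.0429, SE 0.23). The Delta genes, which carry the Notch signal from committing cells to their neighbours, did not pass and had log2 fold changes above 0. The largest was that of dlc, at 202 and 206 CPM in the knockdown libraries, against 128 and 142 CPM in the control libraries (0.60, SE 0.20, edgeR adjusted p = 0.108). Those of dld, dla and dlb were 0.57, 0.52 and 0.41. The gene sox4a did not pass (-1.81, edgeR adjusted p = 0.0513), nor did scrt1a (-1.26).

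Of 21 tested genes of postmitotic neurons 14 fell, 0 rose and 7 did not pass, with a median log2 fold change of -1.63. Against the control mean their median was -2.02 in knockdown replicate 1 and -1.45 in knockdown replicate 2, over 19 genes averaging at least 2 CPM. Among those that fell were sypb, sypa, sncb, tubb5, isl1, vamp2, MAP1B, inab, snap25b, elavl3, syt1a, snap25a and sncgb. They encode synaptic, cytoskeletal, RNA-binding and transcription factor proteins of neurons. Those nearest behind were stmn2a, stmn2b, isl2b and gap43. Of 21 cell cycle and replication genes mcm7 and ccnd1 rose, 0 fell and 19 did not pass, with a median of 0.61. Over all genes tested, edgeR called 5.23% lower and 2.04% higher. DESeq2 called 8 of the 21 cell cycle genes higher and 0 lower, and 18 of the 21 neuron genes lower and 0 higher. Over all 37012 transcripts it called 2086 higher and 3152 lower, against 762 and 1841 with edgeR. The next cell cycle genes by edgeR p were mcm2, pcna, fen1 and mcm5. With control replicate 2 left out, 5 of the 14 neuron calls and 0 of the 2 cell cycle calls remained.

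**Figure D4:**
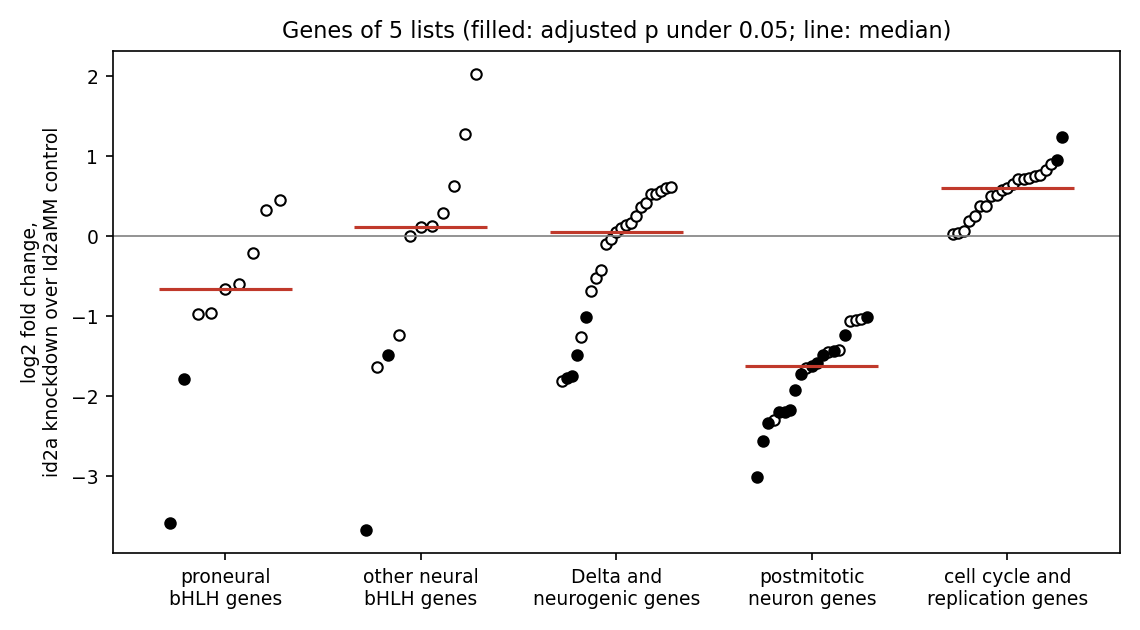
Log2 fold change of every tested gene in 5 lists, id2a knockdown over Id2aMM control, with filled points for an edgeR adjusted p under 0.05 and red lines for list medians. The median of the proneural bHLH genes (-0.66) lies between those of the postmitotic neuron genes (-1.63) and the cell cycle and replication genes (0.61). The lowest proneural point is neurod2 (-3.59), which passed the filter on low counts through the control libraries alone. It had 7 and 10 counts in the knockdown libraries, so its place relative to other genes is uncertain.

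The genes whose course over the 4 libraries lay closest to that of atoh7 and neurod were taken from 11631 genes that average at least 2 CPM and carry a symbol other than a clone name, by the root mean square difference of centred log2(CPM + 0.5). For neurod they were rab3c (0.05), STXBP5L (0.06), ccng2 (0.06), RAPH1 (2 of 2) (0.07) and FOXO4 (0.08). For atoh7 they were itga10 (0.05), relt (0.07), ccdc28b (0.09), RASA2 (0.09) and cdkn3 (0.10). These distances rest on 4 libraries, which all genes share.

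**Figure D5:**
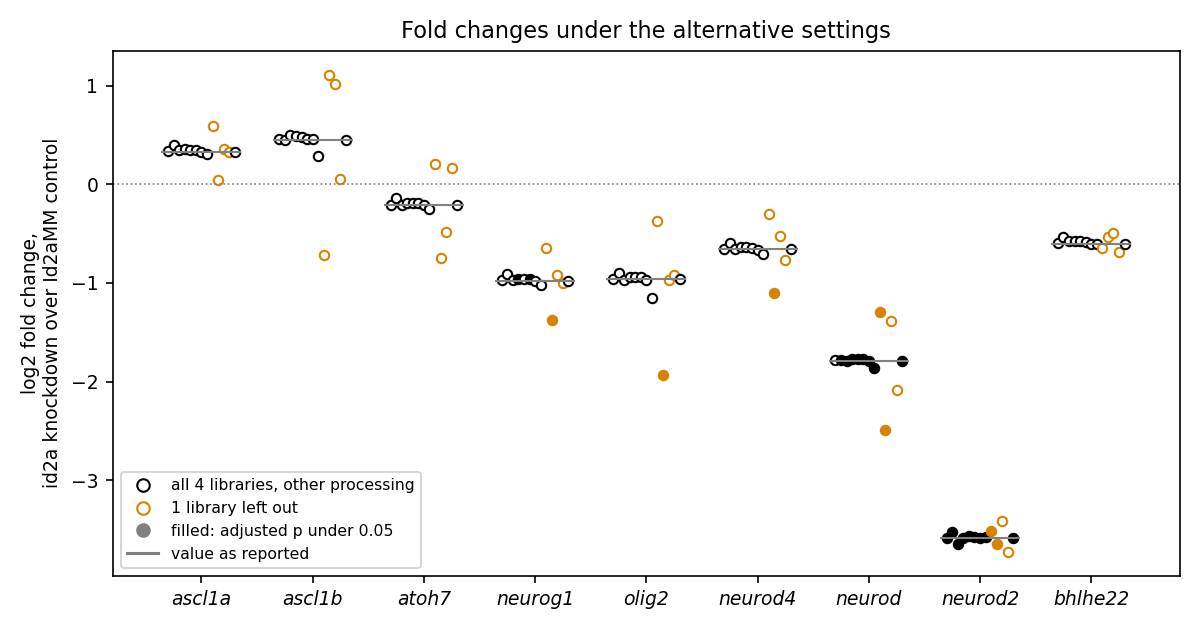
Log2 fold change of each gene, id2a knockdown over Id2aMM control, under 13 alternatives: black points use all 4 libraries with other processing, orange points leave out 1 library, filled points have an adjusted p under 0.05 and grey lines are the values as reported. The values of neurod2 stay between -3.73 and -3.42, while those of atoh7 and ascl1b lie on both sides of 0.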

How the data were processed

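Poly-A RNA of 48 hours post fertilization retinas was sequenced in 2 id2a knockdown and 2 Id2aMM control libraries. Per the file headers, each library comes with raw counts per transcript (first mate, and both mates) and with estimated counts that divide a read among its matching transcripts. The deposited file names point to bowtie and zebrafish cDNA of Ensembl release 66, with aligner settings and genome build not given in the sources used here. In the raw counts a read scores once for each transcript it matches, 1.89 to 2.01 times on average, so transcripts that share reads are uncertain. The authors' whole-series table holds a score, which equals 1000 times RPKM: transcript lengths implied by the 4 libraries for the 11 transcripts differed by at most 0.917%. The authors' deposited comparison adds log2 fold changes and adjusted p-values from DESeq, per the submitters' processing notes.

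R 4.3.3 and edgeR 4.0.16 were used to fit the first-mate counts (filterByExpr, TMM, glmQLFit and glmQLFTest, no block), and p was adjusted by Benjamini-Hochberg over 37012 transcripts. The most abundant transcript over all libraries stood for a gene. Levels are CPM on the TMM scale. The code was tested on simulated data. Alternatives were reads summed per gene, split reads (rounded), both mates, DESeq2 1.42.0, RLE size factors, no filter, at least 50 counts in 2 libraries, a replicate block, each library left out and the transcript with the smallest p. The last of these gave the reported values for all 9 members. Genes named were the 9 members, the called genes of each list with up to 4 others by p, and the 5 nearest in course to atoh7 and neurod; id2a, dla and dlb were added after their values were seen. The result of 1 listed gene is not reported here. Of the marker lists, only genes that a statement needed are named. Of the muscle and leukocyte markers 1 of 6 and 1 of 7 tested genes were lower and 0 higher. The members and lists were chosen with earlier results of these data known.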

Additional observations from a re-analysis of the deposited data

How the results depend on the processing

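The number of proneural bHLH genes called lower, 2 with all 4 libraries, became 1 with reads summed per gene and ranged from 0 (without either control replicate) to 5 (without knockdown replicate 2, adding neurog1, olig2 and neurod4) with 1 library left out. The number was 3 with DESeq2 and with no filter, both adding neurog1, and 2 in the other alternatives that kept all 4 libraries. No alternative called a gene higher. Over all transcripts, 1841 lower and 762 higher calls became 620 and 208 with reads summed per gene, 3152 and 2086 with DESeq2, and 3247 and 1781 with no filter; split reads gave 1165 higher calls. Leaving out 1 library gave log2 fold changes of -0.75 to 0.20 for atoh7 and -0.71 to 1.11 for ascl1b. With 1 library left out, lower calls ranged from 0 to 3241 and higher calls from 0 to 1669, 0 in both without control replicate 1. Such a fit takes the spread of the remaining pair for the single library as well. Summing reads per gene left 21268 rows to test, against 37012 transcripts. The causes of these differences were not tested. The difference of neurod and neurod2 to ascl1a and atoh7 (-1.94) stayed between -2.33 and -1.55 in the 12 alternatives run for it. The ends were without control replicate 2 and without control replicate 1. The sign turned for atoh7 without knockdown replicate 1 (0.20) and without control replicate 2 (0.17), and for ascl1b without knockdown replicate 1 (-0.71). The other 7 genes kept their sign in all 13 alternatives. The labels give both groups replicate numbers 1 and 2 but no shared source, and the deviations of same-numbered libraries correlated at -0.03 over transcripts. With the replicate block 2 genes were called lower, with log2 fold changes of -1.86 for neurod and -3.58 for neurod2, and over all transcripts 2555 lower and 1096 higher. Depth limits neurod2 in the knockdown (7 and 10 counts) and ascl1b (29 to 79 counts).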
